A study of Mus musculus with 6 samples.

Results

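The Hox genes encode homeodomain transcription factors that lie in 4 clusters of the mouse genome, HoxA on chromosome 6, HoxB on chromosome 11, HoxC on chromosome 15 and HoxD on chromosome 2. They were chosen by name, as every gene of the deposited isoform table called Hox with a cluster letter and a paralog number, and the values of their transcripts were summed. This gave 39 of 55267 genes and 87 of 142604 transcripts. Antisense and other noncoding genes of the clusters are not members and are described beside them. The rule used no measured value.

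Genes of a cluster are numbered along the chromosome, and those with the same number in different clusters, the paralogs, descend from 1 ancestral gene. In the embryo, low-numbered genes are switched on early and near the head and high-numbered genes late and near the tail, so that a combination of Hox proteins marks a position along the body. In the gut they are known mainly from the mesenchyme, which forms muscle and connective tissue, and from the enteric neurons, and the highest numbers are known from the hindgut. Hox proteins bind DNA with cofactors of the TALE class (Pbx, Meis and Pknox), Cdx factors act above them, and Polycomb and Trithorax complexes keep them off or on.

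RNA was read from intestinal tissue of mice for which no strain, genotype, sex or age was found in the sources used here. Mice of the cold water group (3 libraries) had 1 ml of water chilled to 0 to 4 °C put into the stomach at 8 am on each of 14 days, and control mice (3 libraries) had the same volume at 20 to 25 °C at 9 am, so the hour of gavage moves with the temperature of the water and the effects of the hour and of the temperature cannot be told apart. Both groups lived at 22 °C. No label says that each library is a separate animal, so p-values measure the spread between these libraries, which may be technical. The tissue itself is in doubt, since the sample characteristics name the proximal jejunum and the series text names the colon.

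Levels are in FPKM, the fragments of a transcript scaled by its length and by the library's depth as the authors estimated them, a unit that can be compared between genes. Libraries held 72690433 to 78668871 estimated counts, and about 3.76 counts stand for 1 fragment. Enterocyte genes of the small intestine were abundant in all 6 libraries, with the brush border enzymes lactase (Lct) at 236.6 to 405.5 FPKM and sucrase-isomaltase (Sis) at 443 to 634 FPKM, while the stomach list was at 0 for 4 of 4 genes. The proximal factor Gata4 stood at 37.7 to 51.1 FPKM, the ileal hormone gene Fgf15 at 0, and the colon markers Car1 and Scnn1b at 0 to 2.76 and 0 to 0.0181 FPKM. Cold water 1 stood apart in its B cell markers, whose sum was 71.4 FPKM against 2.25 to 4.79 FPKM in the other 5 libraries.

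Promoters from 250 bases before to 50 after the start were held by the RefSeq table on GRCm38.p6 for 22 of the 39 members, as 24 promoters. They are shown for Hoxa5, a member above 1 FPKM, and for Hoxd13, a member at 0, with the dinucleotide CG in capitals, as both are rich in it. The Hoxa5 promoter lies at chr6:52204538-52204837 on the minus strand and holds 29 CG, and that of Hoxd13 lies at chr2:74667975-74668274 on the plus strand and holds 37.

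Hoxa5 promoter: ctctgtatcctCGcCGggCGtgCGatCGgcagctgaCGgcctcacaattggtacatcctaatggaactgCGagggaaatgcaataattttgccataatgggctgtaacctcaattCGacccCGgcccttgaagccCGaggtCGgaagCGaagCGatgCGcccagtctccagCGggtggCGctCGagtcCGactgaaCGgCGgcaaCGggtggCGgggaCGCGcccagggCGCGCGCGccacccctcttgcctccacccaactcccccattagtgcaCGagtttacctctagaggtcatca
Hoxd13 promoter: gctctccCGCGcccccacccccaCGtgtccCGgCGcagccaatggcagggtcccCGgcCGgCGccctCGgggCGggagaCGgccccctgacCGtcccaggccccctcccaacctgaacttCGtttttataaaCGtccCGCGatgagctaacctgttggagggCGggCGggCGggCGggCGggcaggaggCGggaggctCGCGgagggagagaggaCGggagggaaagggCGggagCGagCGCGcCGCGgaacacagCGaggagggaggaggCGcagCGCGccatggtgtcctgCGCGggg

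The median was 14.5 CG over the 24 Hox promoters and 7 over all 32851 promoters of the table. It was 13 (range 9 to 29) over the 7 promoters of members at 0.2 FPKM or more and 15 (range 4 to 37) over the 7 promoters of members at 0, so the number of CG did not separate them. Searched on both strands, the TATA motif TATAAA was in 4 of 24 Hox promoters (16.7%, against 13.6% of all), Hoxd13 among them. The Cdx motif TTTATG was in 20.8% against 11.9%, the Pbx-Hox motif TGATNNAT in 16.7% against 8.85%, and the retinoic acid receptor half-site AGGTCA in 29.2% against 16.3%, Hoxa5 among the last. Other motifs were searched as well. The Cdx motif with T instead of G as its last base was in 20.8% against 19.6%, near the background. A spaced pair of the retinoic acid half-site was in 0 of 24 Hox promoters, against 0.00913% of all. The motifs CACGTG, which contains a CG, and TAATTA read the same on both strands. CACGTG was in 20.8% against 7.15% and TAATTA in 8.33% against 5.29%. The Hox shares rest on at most 7 of 24 promoters, and enrichment was not tested. Sites of different motifs may overlap, and these are matches of letters in a window.

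Hox transcripts were present at low levels and came mostly from the low and middle numbers. Of the 39 members, 17 had a count in all 6 libraries, 13 in 1 to 5 libraries and 9 in none. A mean of 1 FPKM or more over the 6 libraries was reached by 7 members, 0.2 FPKM by 15 and 0.1 FPKM by 19. All 15 members at 0.2 FPKM or more had a paralog number of 8 or lower, out of 23 members with such numbers. Ordered by mean level, 3 of 29 neighbours differed by more than 1 SD of their difference over the libraries. These were Hoxb3 over Hoxc4, Hoxb7 over Hoxa2 and Hoxa7 over Hoxb8, and the other neighbours did not differ beyond their spread. Members that are not neighbours in this order were not compared.

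**Figure D1:**
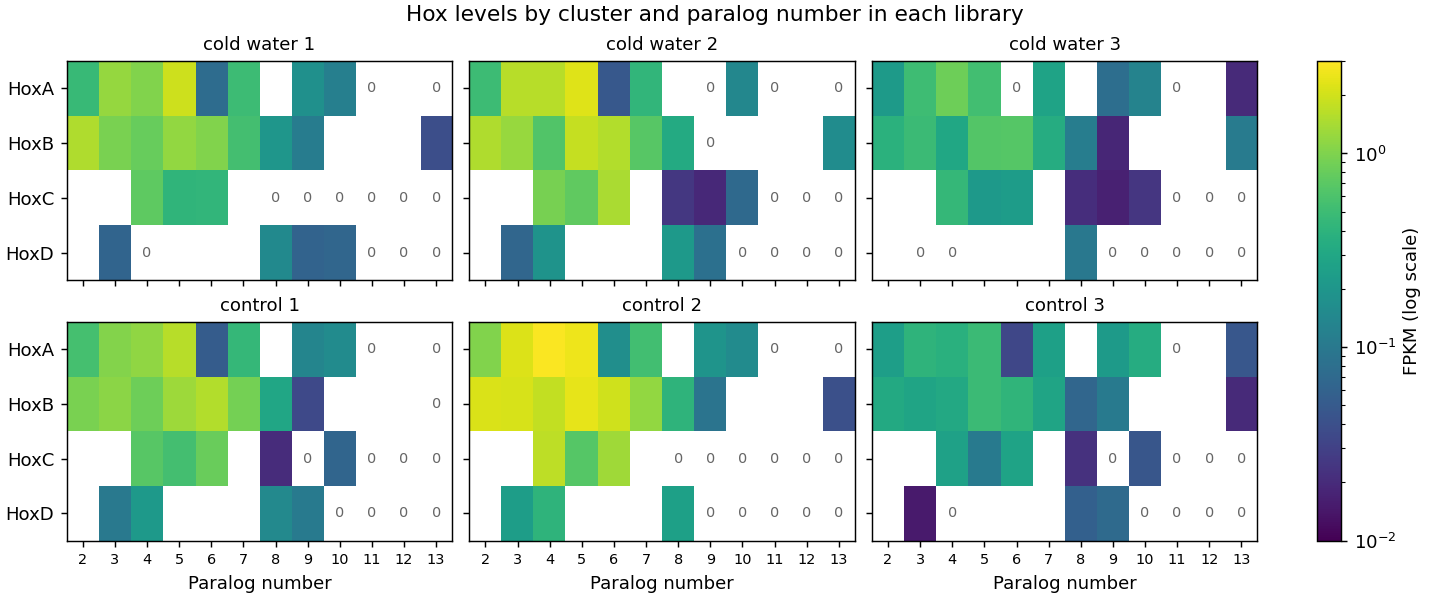
Level of each Hox gene in FPKM (colour, log scale) by cluster (rows) and paralog number from 2 to 13 (columns), with 1 panel for each library. Empty squares are numbers that the cluster lacks and 0 marks a count of 0. The bright squares lie at numbers 2 to 7 of HoxA, HoxB and HoxC, and are dimmer in cold water 3 and control 3.

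Among the low numbers, the paralogs 1 to 3, known from hindbrain and pharyngeal arch patterning, 3 genes were prominent. Hoxa3 (ENSMUSG00000079560, chr6:52169062-52213336), which is needed for thymus and parathyroid formation, stood at 1.22, 1.62 and 0.511 FPKM in replicates 1, 2 and 3 of the cold water group and at 1.03, 2.21 and 0.406 FPKM in those of the control group. Hoxb2 (ENSMUSG00000075588, chr11:96350525-96354012), known from the hindbrain and facial nerve, stood at 1.51, 1.51 and 0.383 FPKM in the cold water libraries and at 0.953, 2.17 and 0.322 FPKM in the controls. Both were highest in control 2 and lowest in control 3, so that the control range held all cold water values.

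Hoxb3 (ENSMUSG00000048763, chr11:96323326-96347930) stood at 0.959, 1.25 and 0.491 FPKM with cold water and at 1.10, 2.10 and 0.283 FPKM in the controls, replicates again in the order of their numbers. It had the same highest and lowest library. Hoxa2, a selector gene of the second pharyngeal arch, ranged from 0.226 to 1.01 FPKM. Hoxd3 ranged from 0 to 0.237 FPKM. Hoxb1 and Hoxd1 were at 0 in all 6 libraries.

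The middle numbers, 4 to 6, held 4 of the 7 members at 1 FPKM or more. Hoxa5 (ENSMUSG00000038253, chr6:52201754-52204587), which acts in lung and gut mesenchyme, had a mean of 1.58 ± 0.887 FPKM (SD, n = 6), which did not differ from that of its neighbour Hoxa4 beyond the spread. Its values were 1.92, 2.27 and 0.539 FPKM in the cold water libraries and 1.62, 2.61 and 0.490 FPKM in the controls. Cold water 3 and control 3 were the low libraries, under each of the other 4, and the groups overlapped.

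Hoxa4 (ENSMUSG00000000942, chr6:52189671-52191753), known from patterning of the neck vertebrae, stood at 1.03, 1.62 and 0.849 FPKM in the cold water libraries and at 1.16, 2.89 and 0.371 FPKM in the controls. Hoxb5 (ENSMUSG00000038700, chr11:96303336-96306121), which in mouse takes part in the colonisation of the gut by neural crest cells and in Ret transcription, stood at 1.20, 1.82 and 0.645 FPKM against 1.3, 2.44 and 0.491 FPKM. Hoxb6 (ENSMUSG00000000690, chr11:96292476-96301569), known from the trunk mesoderm, stood at 1.02, 1.56 and 0.660 FPKM against 1.56, 2.0 and 0.422 FPKM. All of them repeated the order of Hoxa5 at the ends, with control 2 highest and control 3 lowest.

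Just under 1 FPKM, and therefore outside the main fit, were Hoxc4 (mean 0.792 FPKM), Hoxb4 (0.780 FPKM), known from blood stem cells, and Hoxc6 (0.756 FPKM), known from the thorax. Just above it was Hoxb3 (1.03 FPKM). Hoxc5 had a mean of 0.451 FPKM, Hoxd4 of 0.135 FPKM and Hoxa6 of 0.0625 FPKM. Hoxd4 was read in 3 libraries, cold water 2, control 1 and control 2, at 0.187 to 0.408 FPKM.

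Numbers 7 and 8, known from the thoracic axis, were lower. Hoxb7 ranged from 0.279 to 1.18 FPKM, Hoxa7 from 0.256 to 0.536 FPKM, Hoxb8 from 0.0651 to 0.412 FPKM, Hoxd8 from 0.0575 to 0.258 FPKM and Hoxc8 from 0 to 0.0250 FPKM. Hoxa7 varied least of the 15 members at 0.2 FPKM or more, with an SD of 28.6% of its mean against 50.4 to 70.6% for the other 14.

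**Figure D2:**
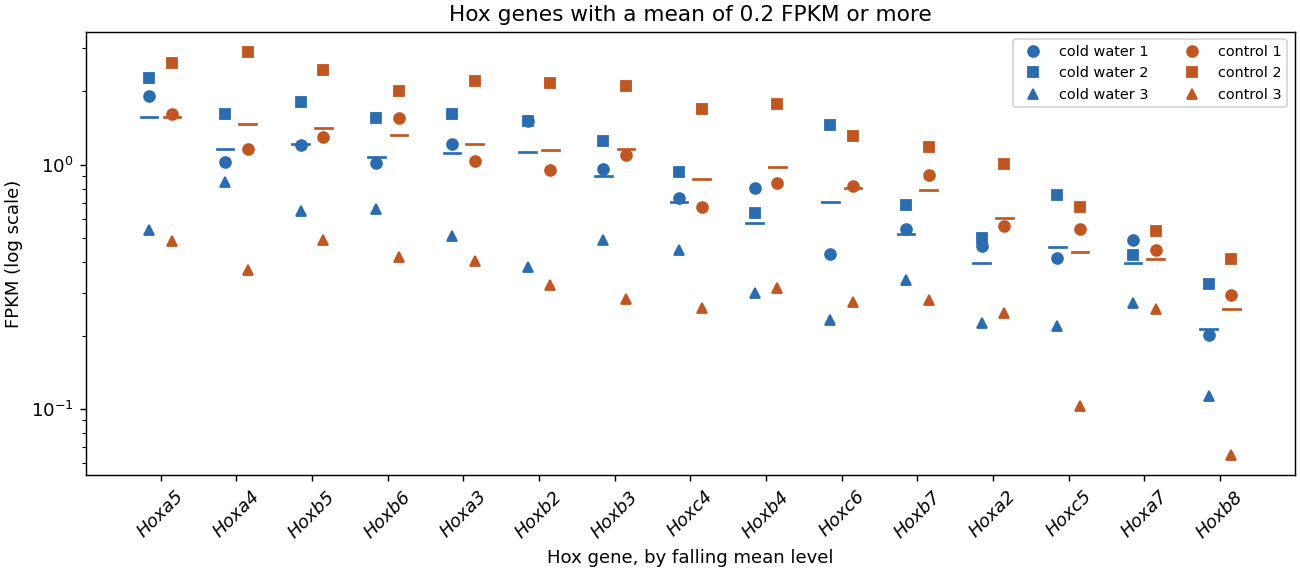
FPKM (log scale) of the 15 Hox genes with a mean of 0.2 FPKM or more in each library, cold water in blue and control in orange. Symbols mark the replicate number and short bars the group means. The highest point is control 2 for 13 genes, and the lowest points are the triangles, control 3 for 12 genes and cold water 3 for 3.

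The high numbers, 9 to 13, were nearly absent. Of 16 members 9 had a count, and together they held 21.8 to 42.3 fragments in a library. Hoxa10, known from the uterus, was the highest, at 0.117, 0.140 and 0.129 FPKM in the cold water libraries and 0.156, 0.157 and 0.344 FPKM in the controls. These rest on about 6.91 to 7.71 fragments in a cold water library and 8.78 to 11.97 in a control library. Hoxa10 was the single member with a count whose groups did not overlap, lower in cold water. It was 1 of 12 members with a mean of 0.1 to 1 FPKM, and 7.54% of all genes at that level had groups that did not overlap, so its share is near the background. Of the 7 members at 1 FPKM or more 0 did, against 9.44% of all such genes.

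Hoxc10, known from the lumbar spinal cord, had 0, 2.93 and 1.06 fragments in the cold water libraries and 2.93, 0 and 2.13 in the controls. Hoxd10, known from motor neurons of the leg, had 2.93 fragments in cold water 1 and none elsewhere. Hoxa13, a gene of the hindgut, limb tip and genital tract, had 1.06 fragments in cold water 3, 2.66 in control 3 and none in the other 4 libraries. Hoxb13, known from the prostate and tail, had 2.13, 7.71 and 5.05 fragments in the cold water libraries and 0, 2.13 and 1.06 in the controls. The other members with a count were Hoxa9 (0 to 0.223 FPKM), Hoxb9 (0 to 0.109 FPKM), Hoxd9 (0 to 0.105 FPKM) and Hoxc9 (0 to 0.0195 FPKM). The groups overlapped for each of these 8 genes.

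The members at 0 in all 6 libraries were Hoxa11, Hoxc11, Hoxc12, Hoxc13, Hoxd11, Hoxd12 and Hoxd13 of these numbers, with Hoxb1 and Hoxd1. For them 3 fragments in a library would have given up to 0.0421 to 0.137 FPKM, depending on the length of the gene's longest transcript. By the shortest transcript this level was 0.0675 FPKM for Hoxa11, 0.127 FPKM for Hoxd11 and 0.181 FPKM for Hoxb1. The upper limit that a count of 0 allows thus depends on the transcript, and it covers counting error only.

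Read by cluster, HoxB and HoxA made up most of the signal. The summed level of all members was 13.9, 18.4 and 6.74 FPKM in the cold water libraries and 14.9, 26.6 and 5.57 FPKM in the controls. Within a library HoxB took 41.3 to 47.0% of the sum, HoxA 34.9 to 43.4%, HoxC 11.4 to 17.7% and HoxD 1.45 to 3.82%. The sum varied 4.78-fold between libraries, the share of HoxA 1.24-fold, that of HoxB 1.14-fold, that of HoxC 1.55-fold and that of HoxD 2.63-fold.

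By number, paralogs 4 to 6 took 49.6 to 61.2% of the summed level and paralogs 1 to 3 took 22.9 to 30.8%. Paralogs 7 and 8 took 8.98 to 12.5%. Paralogs 9 to 13 took 4.09, 2.56 and 5.86% in the cold water libraries and 3.32, 1.79 and 15.4% in the controls. The high share in control 3 went with the lowest sum of the other numbers. The summed level of paralogs 9 to 13 there, 0.855 FPKM, was also above the 0.395 to 0.567 FPKM of the other 5 libraries. Of it, 0.330 FPKM was 1 Hoxa10 transcript of 1436 bases that was read in control 3 alone. In fragments these paralogs held about 42.3 in control 3 and 21.8 to 34.3 in the other 5 libraries.

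The highest number that reached 1 FPKM was 5 in HoxA in 4 libraries and 6 or 7 in HoxB in the same 4. In HoxC it was 6 in cold water 2 and control 2 alone, and no HoxD gene reached it. In cold water 3 and control 3 no member reached 1 FPKM. At 0.1 FPKM the highest number was 10 in HoxA and 6 in HoxC in all 6 libraries. In HoxB it was 9, 13 and 13 in the cold water libraries and 8, 8 and 9 in the controls. The 13 is Hoxb13, on about 7.71 fragments in cold water 2 and 5.05 in cold water 3. In HoxD it was 8 in cold water 1 and 2, 9 in control 1 and 8 in control 2. No HoxD gene reached 0.1 FPKM in cold water 3 or control 3. The mean paralog number weighted by level was 4.57, 4.69 and 4.94 in the cold water libraries and 4.78, 4.46 and 5.40 in the controls, so the groups overlapped. No library of a known gut segment was analysed here, and these levels were therefore not set against a jejunum or a colon of known origin.

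Most of the multi-transcript members were read through 1 main isoform. Of 24 members with 2 or more transcripts in the table, 21 had a count, and for 15 of these the same transcript led in every library where the gene was read. Hoxa3 was led by ENSMUST00000114434 (82.1 to 100% of its FPKM), with the noncoding ENSMUST00000148446 next (0 to 17.9%). Hoxb5 was led by ENSMUST00000049272 (84.5 to 99.9%) over a transcript with a retained intron. Hoxb6 was led by ENSMUST00000000704 (86.6 to 100%) over a longer coding transcript.

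Hoxb2 was led by the coding ENSMUST00000100523, at 52.2 to 89.3% of its FPKM, over ENSMUST00000182030, which retains an intron. Hoxb3 was led by its coding transcript of 3190 bases with 85.8 to 100% of its FPKM in 5 libraries, but with 12.5% in cold water 2, where a coding transcript of 1890 bases took 42.4%. As FPKM is per length, Hoxb3 stood at 1.25 FPKM in cold water 2 on about 39.1 fragments, and at 0.959 FPKM in cold water 1 on about 70.2. Of Hoxa10, the shorter transcript ENSMUST00000121043 took 95.9% in control 3 and none in the other 5 libraries. The leading transcript also changed between libraries for Hoxa7, Hoxc4, Hoxc8 and Hoxd8.

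Several members share sequence with neighbours or with each other, which limits how reads could be divided. The median longest run shared letter for letter was 17 bases for the 42 pairs of members of the same paralog number and 14 bases for the 699 other pairs. At most it was 50 bases in the former and 52 in the latter, so long shared runs were not typical of the pairs. No source used here says whether strand was kept, so reads of a member and of an antisense gene over it cannot be told apart. Exon bases were shared with a gene of the opposite strand by 10 members, the longest being 2250 bases between Hoxb3 and the antisense gene Hoxb3os, which ranged from 0 to 0.509 FPKM. Hoxa7 and Hoxa3 overlap Hoxaas3, at 0.174 to 0.872 FPKM, which for Hoxa7 is 586 bases. Hoxa11, itself at 0, overlaps Hoxa11os, at 0 to 0.141 FPKM. Hoxd3 and Hoxd4 share 388 exon bases and Hoxc5 and Hoxc10 share 166 on the same strand, so the split within these pairs is uncertain.

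The clusters also hold microRNA genes, which in vertebrates target Hox transcripts. Their mature forms fall into groups by seed, here in capitals as bases 2 to 8, from RefSeq on GRCm38.p6. They are shown because the clusters' own microRNAs come in paralogous sets as the Hox genes do.

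mmu-miR-10a-5p: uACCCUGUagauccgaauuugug
mmu-miR-10b-5p: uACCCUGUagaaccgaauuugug
mmu-miR-196a-5p: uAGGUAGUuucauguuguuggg
mmu-miR-196b-5p: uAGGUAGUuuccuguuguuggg

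The table lists the hairpin genes, and fragments of these libraries are longer than a mature microRNA, so the mature forms were not measured. Mir10b, Mir196a-1 and Mir196a-2 were at 0 in all 6 libraries, Mir10a reached 0.0560 FPKM and Mir196b 0.138 FPKM at most.

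The summed Hox level varied more between libraries of a group than between the group means. All 7 members at 1 FPKM or more were highest in control 2 and lowest in control 3, where 23.1% of all genes at that level were highest and 29.9% lowest. Of the 15 members at 0.2 FPKM or more, 13 were highest in control 2 and lowest in either control 3 or cold water 3. The same held for 19.3% of all genes at 0.2 FPKM or more and for 23.3% of those between 0.2 and 2 FPKM. The exceptions were Hoxc5 and Hoxc6, which were highest in cold water 2.

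Markers of the muscle layer and of enteric neurons moved with the Hox sum. The 7 smooth muscle genes, among them the actin Acta2 and the myosin Myh11, summed to 849, 1369 and 342 FPKM in the cold water libraries and to 695, 1668 and 170 FPKM in the controls. Summed over the 7 enteric neuron genes, among them the receptor Ret, the level was 26.3, 33.5 and 11.7 FPKM with cold water and 25.1, 47.7 and 9.0 FPKM in the controls. Of both lists none was at 0 in all libraries. Epithelial markers, 5 genes, summed to 3897, 3622 and 5321 FPKM and to 3171, 3009 and 3953 FPKM, and were thus highest in cold water 3 and lowest in control 2.

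Relative to 1000 FPKM of the enteric neuron list, all Hox members together had 528 to 618 FPKM, a 1.17-fold range. Against the glia list the range was 1.44-fold, against interstitial cells of Cajal 1.62-fold, against stroma 1.67-fold, against smooth muscle 2.43-fold, against endothelium 2.62-fold and against epithelium 6.98-fold. Paralogs 9 to 13 did not follow this order, as their sum was highest in control 3. In bulk tissue, fewer cells of a type and less RNA per cell cannot be told apart, and the part of the tissue's makeup in the Hox levels was not tested.

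**Figure D3:**
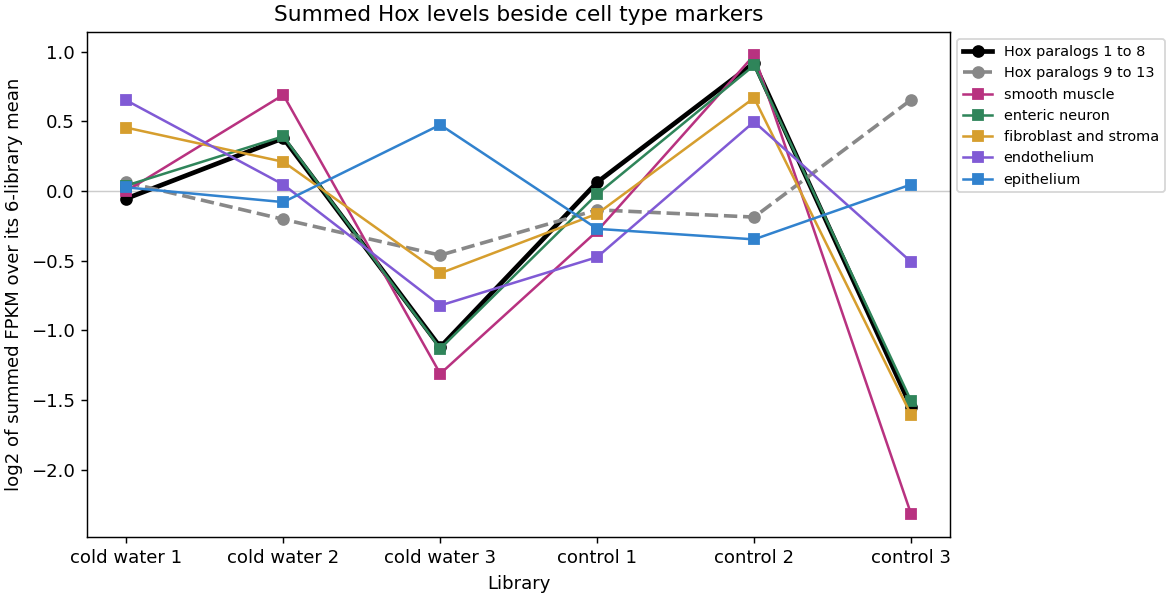
Summed FPKM of Hox paralogs 1 to 8 and 9 to 13 and of marker lists in each library, as log2 of its ratio to the mean of the 6 libraries. Lines join the values of a set and carry no order. Hox paralogs 1 to 8 lie almost on the enteric neuron line, and paralogs 9 to 13 are highest in control 3.

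Cold water against control asks whether repeated intake of cold water went with another Hox level. No member passed. Of the 7 members tested, those with a mean of 1 FPKM or more, 0 were called by the quasi-likelihood test of edgeR, Benjamini-Hochberg adjusted over 12939 genes, of which 0.0386% were called. At an unadjusted p under 0.05 there were 0 members and 5.01% of genes. DESeq2 and limma on log2(FPKM + 1) also called 0 members, and 0.549% and 0.0232% of genes. The summed Hox level was 13.01 ± 5.89 FPKM (SD, n = 3) in cold water and 15.7 ± 10.5 FPKM in control, a difference smaller than the spread in either group.

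The log2 difference, cold water minus control, was lower in cold water for 6 of the 7 tested genes, against 45.8% of all genes tested, and lay between -0.67 and 0.04 with standard errors of 0.57 to 0.66. The median was -0.17, and 0.03 over all genes tested. Hoxa5 differed by 0.04 (95% interval -1.52 to 1.60), Hoxa3 by -0.09, Hoxb2 by -0.12, Hoxb5 by -0.17, Hoxa4 by -0.25 and Hoxb6 by -0.30. In the edgeR fit Hoxb3 differed most, by -0.67 (95% interval -2.09 to 0.76, edgeR adjusted p = 0.911), and its groups overlapped. On FPKM its log2 difference by limma was -0.12 with a pseudocount of 1 and -0.09 with a pseudocount of 0.1. The intervals of all 7 genes hold 0 and reach past a halving of the level, so that differences of that size lie within the error of these libraries.

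The sign of these differences changed with single libraries of either group. Without control 2, 6 of the 7 genes lay higher in cold water (median 0.49), and without control 3 all 7 lay lower (median -0.57). Without cold water 3, 4 genes lay higher (median 0.07), and without cold water 2 the median was -0.58. Leaving out cold water 1, with its B cell markers, gave a median of -0.12. In these fits 0 members and 0 to 1 of all genes were called.

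With the filter lowered to a mean of 0.1 FPKM, 19 members were tested and 17 lay lower in cold water. Their median difference was -0.25 on the log2 scale. None was called, where 0.0102% of genes were. Among them were Hoxb4 at -0.72 (standard error 0.59), Hoxb7 at -0.55 (0.55), Hoxa2 at -0.57 (0.54) and Hoxa10 at -0.43 (0.48), and Hoxc5 at 0.12 (0.69). For transcripts, 5 were tested and edgeR called 0, where 0.0285% of 21041 transcripts were called. These leading transcripts of Hoxa3, Hoxa4, Hoxa5, Hoxb5 and Hoxb6 differed by -0.27 to 0.04 with standard errors of 0.60 to 0.75.

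A marker score as a further term narrowed the errors without a call, in 2 fits chosen after the data were seen. With the mean log2 level of the smooth muscle list in the model, standard errors fell to 0.25 to 0.38, all 7 genes were lower in cold water and the median was -0.22. With the enteric neuron list they fell to 0.22 to 0.39, 3 genes were lower and the median was 0.08. In either fit 0 members and 0.00773% of genes were called. Hoxb3 did not pass in either, with log2 differences of -0.57 (95% interval -1.50 to 0.36) and -0.32 (95% interval -1.28 to 0.63).

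**Figure D4:**
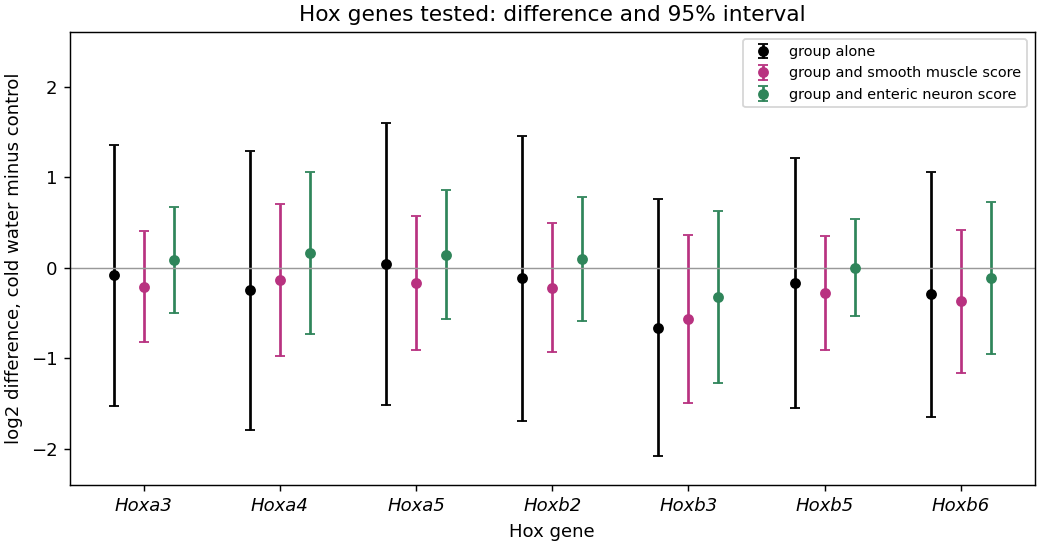
Log2 difference, cold water minus control, of the 7 Hox genes tested with its 95% interval, with group alone (black), with a smooth muscle score (pink) and with an enteric neuron score (green). All intervals cross 0, and those of both added fits are narrower.

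Genes that act with or above the Hox genes were read from lists. Of 9 TALE cofactors, which bind DNA beside Hox proteins, 7 were tested, with 2 higher and 5 lower in cold water and none called. Meis1 stood at 1.06, 1.38 and 0.520 FPKM in the cold water libraries and 0.806, 2.49 and 0.264 FPKM in the controls, and Meis2 at 2.93, 4.79 and 1.59 FPKM against 3.04, 7.57 and 2.04 FPKM. Both were highest in control 2, as the Hox genes were, and Meis1 was lowest in control 3 and Meis2 in cold water 3.

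Cdx1 and Cdx2, the caudal-type factors of intestinal epithelium, were highest in control 2, as most Hox genes were, but not lowest in control 3. Cdx2 stood at 53.9, 52.9 and 63.3 FPKM in the cold water libraries and at 82.4, 83.0 and 70.0 FPKM in the controls. Its groups did not overlap, as was so for 9.44% of all genes tested. Its log2 difference of -0.44 (standard error 0.17) did not pass, with an edgeR adjusted p = 0.878. Cdx1 ranged from 38.9 to 56.9 FPKM with overlapping groups. Of the 8 genes on that list 3 were tested, all lower in cold water and none called, and 4, among them Cdx4 and Evx2, were at 0.

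Polycomb genes, 28 of 29 tested, were evenly split, with 14 higher, 14 lower and none called. Phc2 had the smallest p and differed by -0.32 (standard error 0.12, edgeR adjusted p = 0.878). The 13 Trithorax genes were split 7 to 6 with none called. Kmt2a, a histone methyltransferase that maintains Hox transcription, stood at 3.52, 2.46 and 1.29 FPKM in the cold water libraries and at 1.01, 1.75 and 0.750 FPKM in the controls. The groups overlapped, and its log2 difference of 1.03 (standard error 0.36) did not pass, with an edgeR adjusted p = 0.878. Of 16 genes of retinoic acid, an inducer of low-numbered Hox genes in the embryo, 9 were tested, 3 higher and 6 lower with none called. The receptor gene Rara had 7.78 to 11.8 FPKM and the retinoic acid-degrading enzyme gene Cyp26b1 0.364 to 1.24 FPKM.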

How the data were processed

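RNA of 6 libraries, 3 cold water and 3 control, was given in 1 table of isoforms. Per the file headers, the authors deposited FPKM values and estimated counts of transcripts. The counts are coverage estimates, as at least 99.9% of them equal FPKM times length times a constant of the library within 0.02, and 1 fragment is worth about 3.76 counts. An FPKM of 1e-04 stands for a count of 0 and was read as 0. HISAT2 2.0.4 and StringTie 1.3.4d are among the tools that the submitters' processing notes name, beside edgeR, DESeq2, FastQC 0.10.1 and cutadapt 1.9. Roles, build and strandedness are not stated there. All 87 Hox transcripts had coordinates identical to GENCODE M21 (GRCm38).

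FPKM and counts were summed by gene symbol. Genes (12939) and transcripts (21041) with a mean of 1 FPKM or more were tested with edgeR 4.0.16 in R 4.3.3 (quasi-likelihood test, TMM, group as the sole term), with Benjamini-Hochberg adjustment over all of them at a threshold of 0.05. DESeq2 1.42.0, limma 3.58.1 on log2(FPKM + 1) or log2(FPKM + 0.1), RLE scaling, other filters, a replicate block, counts divided by the worth of a fragment and each library left out were alternatives, and 2 marker covariates were added after seeing the data. The test was tried on simulated data. Members at 1 FPKM or more, and members of paralog numbers 10 to 13 with a count, are given in full; other members by range or mean. Of other lists, defining genes and those of smallest p are named, with up to 3 per list. The members and lists were chosen with earlier results of these data known. Intervals and floors cover counting error only where they rest on fragments. Some results on members, cofactors and markers are not reported here.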

Additional observations from a re-analysis of the deposited data

How the results depend on the processing

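No Hox gene and no Hox transcript was called under any alternative, and no gene of the other lists with another scaling, with a filter at 0.1 FPKM or with any 1 library left out. The signs of the log2 differences were not stable, and the cause was not tested. With limma on log2(FPKM + 0.1) Hoxa3 turned to 0.022, Hoxa4 to 0.018 and Hoxb2 to 0.10, and with limma on log2(FPKM + 1) Hoxb2 turned to 0.030. The smooth muscle covariate turned Hoxa5 to -0.17, and the enteric neuron covariate turned Hoxa3 to 0.084, Hoxa4 to 0.16 and Hoxb2 to 0.10. Leaving out 1 library at a time gave -0.49 to 0.55 for Hoxa3, -0.71 to 0.59 for Hoxa4, -0.39 to 0.53 for Hoxa5, -0.56 to 0.49 for Hoxb2, -0.63 to 0.37 for Hoxb5 and -0.71 to 0.069 for Hoxb6. The median of the 7 genes then ran from -0.58 to 0.49, and Hoxb3 stayed below 0, from -1.12 to -0.10. On FPKM, with limma, Hoxb3 differed by -0.12 and -0.09. The highest paralog number present, taken on the mean of the libraries, was 5 in HoxA, 6 in HoxB and none in HoxC and HoxD at 1 FPKM. It was 7 in HoxB and 6 in HoxC at 0.5 FPKM, and 10 in HoxA, 8 in HoxB, 6 in HoxC and 8 in HoxD at 0.1 FPKM. By count, 14 instead of 15 genes kept 1 leading isoform. With the same replicate numbers as a block, 0 Hox genes and 0 Hox transcripts were called, and Hoxa3 turned to 0.017, Hoxa4 to 0.048 and Hoxb2 to 0.020. The standard errors of the 7 genes were 0.293 to 0.495 with the block and 0.569 to 0.663 without it. The main fit did not pair the libraries by number, as the labels name no batch. The deviations of same-numbered libraries from their group means correlated at -0.02, 0.21 and 0.41 for numbers 1, 2 and 3. With 4 of 6 libraries correlating best with their own number, these values do not settle whether the numbers pair the libraries. With 3 libraries a group and 7 to 12 fragments behind a gene such as Hoxa10, depth and spread limit what could be seen.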

Other observations

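Noncoding genes of the clusters, 17 of 21 listed being in the table, were all under a mean of 1 FPKM. With the filter at 0.1 FPKM 5 of them were tested, 1 higher and 4 lower in cold water, and none was called. Hoxb5os, which shares 100 exon bases with Hoxb5 on the opposite strand, was at 0, 0.0739 and 0 FPKM in the cold water libraries and at 0.227, 0.909 and 0.167 FPKM in the controls. Its groups did not overlap, as was so for 7.54% of all genes with a mean of 0.1 to 1 FPKM. Its log2 difference of -3.83 (95% interval -7.07 to -0.58) did not pass, with an edgeR adjusted p = 0.993. That difference rests on few fragments, as about 3.76 counts stand for 1. The estimated counts of Hoxb5os were 0, 4 and 0 in the cold water libraries and 12, 44 and 9 in the controls. The other 4, Hotairm1 (0.58), Hoxaas2 (-0.85), Hoxaas3 (-0.75) and Hoxb3os (-0.89), had intervals that hold 0. Hotairm1, at the low-numbered end of HoxA, stood at 0.652, 0.376 and 0.450 FPKM in cold water 1, 2 and 3 and at 0.392, 0.305 and 0.350 FPKM in control 1, 2 and 3. Unlike the coding genes beside it, it was highest in cold water 1 and lowest in control 2. Hottip, at the high-numbered end of HoxA, had a value in control 3 alone, at 0.0189 FPKM, and Hotair in HoxC was at 0 in all 6 libraries. Hoxa11os was highest in control 3 as well, at 0.141 FPKM against 0 to 0.0496 FPKM in the other 5. The summed level of paralogs 9 to 13 was also highest in control 3. So were Hoxa9, Hoxa10 and Hoxa13, the last on about 2.66 fragments. But Hoxb9, Hoxb13, Hoxc9, Hoxc10, Hoxd9 and Hoxd10 were highest in other libraries.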
